A study of Homo sapiens with 45 samples.

Results

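Immediate early genes are transcribed within minutes of a stimulus, before any new protein is made. The 10 members described here were taken by symbol, namely the AP-1 genes FOS, FOSB, JUN and JUNB, the zinc finger factor genes EGR1, EGR2 and EGR3, the stress-induced factor gene ATF3, IER2 and the neuronal gene ARC. All 10 symbols were found among the 29159 genes in the count tables of 3 human neuroblastoma cell lines, all of the ADRN type. Values for all lines are given with SK-N-BE(2)C first, IMR-32 after it and SH-SY5Y last. Cells were labelled control, or were held in palbociclib (PB), an inhibitor of the cell-cycle kinases CDK4 and CDK6, at 1 μM for 24 h or for longer. SK-N-BE(2)C was held for 7 days at the longer time, IMR-32 and SH-SY5Y for 5 days, so a difference in duration and a difference between SK-N-BE(2)C and the other lines cannot be told apart. Each of the 9 groups held 5 libraries, 45 in all, which in the study's methods are different passages of a line plated in separate experiments. Each line stands for a single tumor, and p-values measure the spread between these libraries. Controls were collected together with the 24 h samples, so a longer exposure to PB and a longer time in culture cannot be told apart. In bulk RNA, fewer cells that express a gene and less RNA per cell cannot be told apart either.

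Growth factors and stress switch these genes on through kinase cascades that end on factors already bound upstream of them, such as SRF with its ELK partners on the CArG box and CREB on cAMP response elements. FOS and JUN proteins pair to form AP-1, EGR proteins bind GC-rich sites and are restrained by the NAB corepressors, and ATF3 often acts as a repressor in stressed cells. The transcripts are short-lived, and fresh medium, detachment and heat can induce them, so their level at harvest can also reflect how a dish was handled.

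The RNA-seq libraries held 13459219 to 25441812 counts. Of the adrenergic markers, 6 (PHOX2A, HAND2, GATA3, TH, DBH and ISL1) summed to between 1280 and 7470 CPM (counts relative to the library's TMM-scaled total) in every library, while the blood cell markers (PTPRC, CD68 and CD3E) summed to between 0.248 and 6.71 CPM and the Schwann-type markers (3 of 4 found) to between 1.17 and 13.8 CPM. The IMR-32 control and 24 h libraries numbered 5 stood apart. Their genes lay a median of 0.281 and 0.241 log2 units from the mean of the other 4 libraries of their group, against 0.0822 to 0.231 in the other 43 libraries. Both had more of the mesenchymal-type markers (6 of 7 found), with a summed level of 1020 against 365 to 410 CPM in the other 4 controls and 741 against 300 to 368 CPM at 24 h. The 5 day library numbered 5 leaned the same way, with 309 against 154 to 225 CPM. The 6 adrenergic markers in the control and 24 h libraries numbered 5 summed to 1280 against 1570 to 2060 and 2260 against 2270 to 2990 CPM, and 8 heat shock genes to 7960 against 4920 to 5730 and 4960 against 3610 to 4570 CPM. The part of these differences in the members' values was not tested, and IMR-32 calls that change without both libraries are given both ways.

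To show what stands upstream of members that were higher together in SK-N-BE(2)C at 7 days, the bases from -200 to -21 before the annotated start are printed for FOS, JUN, EGR1 and the third of 3 starts of EGR2, 5′ to 3′ on the strand of the gene. They come from RefSeq (GRCh38.p14) and were placed by an exact match on GRCh37, the build of the counts, at chr14:75745331-75745510 (plus strand), chr1:59249740-59249919 (minus strand), chr5:137800968-137801147 (plus strand) and chr10:64576147-64576326 (minus strand). None of these bases lies in an annotated exon of its gene. Capitals mark the CArG box, the half-site TGACG of the cAMP response element or its reverse complement CGTCA, the AP-1-like octamers TGACATCA and TTACCTCA, and TATAAA.
FOS: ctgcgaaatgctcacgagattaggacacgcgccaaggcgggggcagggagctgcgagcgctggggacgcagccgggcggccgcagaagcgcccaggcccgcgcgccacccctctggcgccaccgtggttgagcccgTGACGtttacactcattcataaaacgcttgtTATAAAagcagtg
JUN: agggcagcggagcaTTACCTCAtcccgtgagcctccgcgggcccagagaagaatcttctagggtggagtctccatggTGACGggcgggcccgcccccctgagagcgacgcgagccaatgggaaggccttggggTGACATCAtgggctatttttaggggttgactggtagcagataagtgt
EGR1: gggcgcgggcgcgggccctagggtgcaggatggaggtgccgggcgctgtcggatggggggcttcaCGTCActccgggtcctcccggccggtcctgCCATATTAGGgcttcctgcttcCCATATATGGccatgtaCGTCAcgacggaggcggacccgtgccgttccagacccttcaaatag
EGR2: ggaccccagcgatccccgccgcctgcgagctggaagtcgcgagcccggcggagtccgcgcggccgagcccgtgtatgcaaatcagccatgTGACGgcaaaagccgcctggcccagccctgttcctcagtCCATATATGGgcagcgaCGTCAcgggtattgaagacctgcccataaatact

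In these windows EGR1 held 2 CArG boxes, starting at -105 and -83, and the third EGR2 start held 1, at -71, while the other 2 EGR2 starts held none of the motifs searched. FOS held TGACG at -64 and TATAAA at -33, and JUN held TTACCTCA at -186, TGACG at -123 and TGACATCA at -67. Of the members not printed, TGACG or its reverse complement stood at -60 in FOSB, -137 in JUNB and -140 in IER2, and TGACATCA at -123 in the first ATF3 start. Among 35116 windows of 250 bases before annotated starts, 1.16% held a CArG box, 21.2% TGACG, 2.37% TGACATCA, 0.644% TTACCTCA and 6.8% TATAAA. Both strands were searched, except for TATAAA, which was searched on the strand of the gene alone. TGACGTCA (1.65% of windows, and overlapping TGACG) and TGANTCA (6.57%) were searched as well and were not found before the members. Windows were found for 8 of 10 members, and EGR3 and ARC are only named. Bases more than 250 before a start were not searched, so a motif not found here, such as a CArG box before FOS, can stand further upstream. A match describes the letters and says nothing of a bound factor, as does the lack of one.

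The genes lie, in GRCh37 coordinates, on chromosome 14, 75745529 to 75748933 (FOS), chromosome 19, 45971253 to 45978437 (FOSB), chromosome 1, 59242517 to 59249720 (JUN), chromosome 19, 12902300 to 12904129 (JUNB), chromosome 5, 137801168 to 137804992 (EGR1), chromosome 10, 64571756 to 64578927 (EGR2), chromosome 8, 22545172 to 22550993 (EGR3), chromosome 1, 212738676 to 212794119 (ATF3), chromosome 19, 13261225 to 13265725 (IER2) and chromosome 8, 143692410 to 143695840 (ARC). Exons of JUNB share 259 bases with HOOK2 on the opposite strand, those of EGR3 164 bases and those of IER2 1608 bases with unnamed genes there, and EGR2 shares 145 bases with an unnamed gene on its own strand. No source used here gives the strand setting of the counting, so reads from such overlaps cannot be told apart and these levels are uncertain to that extent.

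Before PB, members differed in level by orders of magnitude. On one scale for all 45 libraries and per kb of exon, the SK-N-BE(2)C controls held JUNB at 66.0 ± 6.84 CPM per kb (SD, n = 5), followed by IER2 at 49.8 ± 2.38, ARC at 24.9 ± 1.69, JUN at 22.9 ± 0.963, EGR1 at 11.3 ± 1.25, ATF3 at 4.54 ± 0.368 and FOS at 0.542 ± 0.168. ARC and JUN lay within their summed SDs of each other. The order of JUNB and IER2 rests on their exon lengths (1.83 and 3.079 kb). Without that division IER2 was above JUNB in SK-N-BE(2)C, at 153 ± 7.34 and 121 ± 12.5 CPM, and in SH-SY5Y, at 77.6 ± 9.49 and 49.1 ± 4.08 CPM. In IMR-32, JUN at 31.3 ± 10.1 and IER2 at 24.7 ± 6.04 CPM per kb led and did not separate beyond their spread, followed by JUNB at 14.9 ± 1.07 and ARC at 7.06 ± 2.81, and ATF3 at 0.733 ± 0.208 and EGR1 at 0.677 ± 0.6 did not separate either. In SH-SY5Y, JUNB at 26.8 ± 2.23 and IER2 at 25.2 ± 3.08 led and did not separate, followed by JUN at 11.0 ± 1.56 and EGR1 at 5.98 ± 1.56, with ATF3 at 3.11 ± 0.431 and ARC at 1.92 ± 0.248 below them. FOS, the best known member, was at 0.0849 ± 0.0707 CPM per kb in IMR-32 against 0.646 ± 0.167 in SH-SY5Y. The IMR-32 control numbered 5 was the lowest for both leading genes there, JUN (50.7 against 101 to 135 CPM in the other controls) and IER2 (42.1 against 71.7 to 84.7 CPM). The IMR-32 means of FOS and EGR1 were raised by the control numbered 5, which held FOS at 0.641 against 0.108 to 0.197 CPM and EGR1 at 5.13 against 0.867 to 2.11 CPM in the other controls. FOSB, EGR2 and EGR3 were at or below 0.472 ± 0.0906, the level of EGR2 in IMR-32, in all 3 lines.

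**Figure D1:**
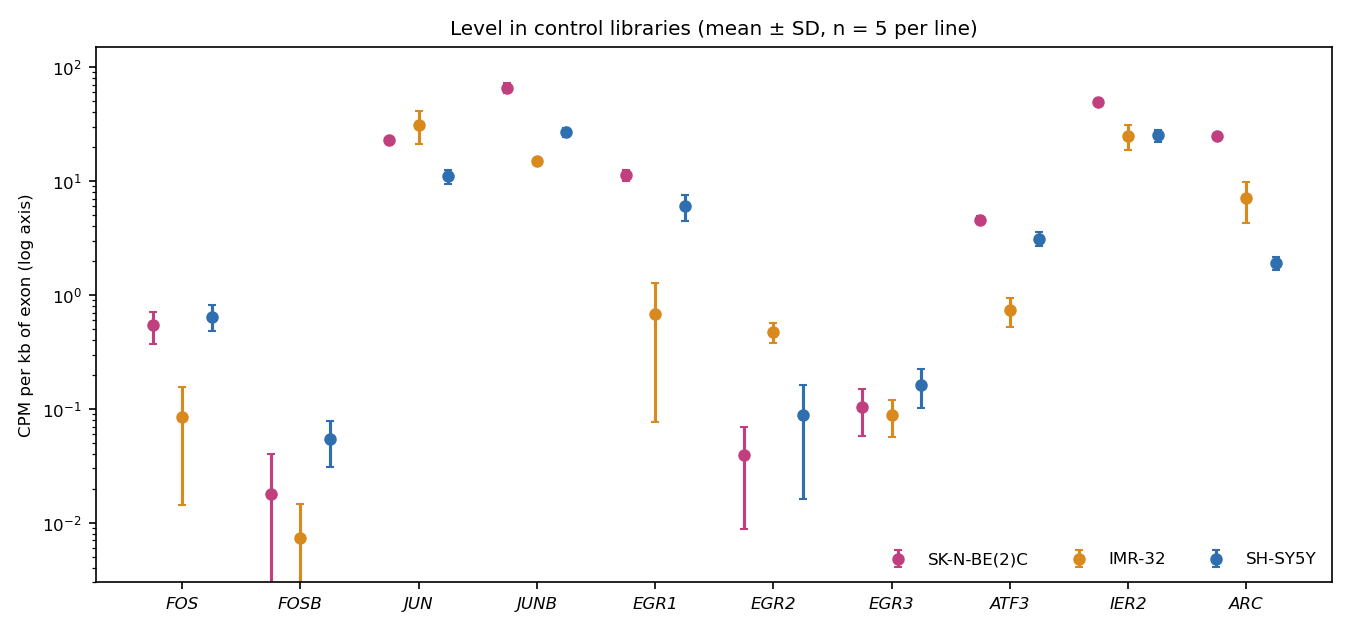
Level of the 10 genes in control libraries of the 3 lines, in CPM per kb of exon on a log axis (points, mean of 5 libraries; bars, SD). EGR1 was lowest in IMR-32, where EGR2 was highest, and ARC ran from 24.9 in SK-N-BE(2)C to 7.06 in IMR-32 and 1.92 in SH-SY5Y.

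A member was called when its adjusted p from edgeR was under 0.05 and its log2 difference was over 0.5 in size. Between controls, 7 of 10 members were called for SK-N-BE(2)C against IMR-32 (62.1% of 16282 genes tested were), 8 for SK-N-BE(2)C against SH-SY5Y (57.5% of all genes) and 9 for IMR-32 against SH-SY5Y (54.2% of all genes). FOSB, called in both comparisons with SH-SY5Y, passed the filter on low counts through PB libraries of SH-SY5Y, the line where it was high. It reached 1.25 CPM there at 24 h, against at most 0.526 CPM in SK-N-BE(2)C and 0.213 CPM in IMR-32. The FOSB calls between controls are given as a description, and the counts that hold FOSB support nothing. EGR1, which couples growth factor signals to transcription, was 4.12 ± 0.35 log2 units (± SE) higher in SK-N-BE(2)C than in IMR-32 (adjusted p = 1.58e-13), and the IMR-32 level minus that of SH-SY5Y was -3.21 ± 0.35. The IMR-32 control numbered 5 held 5.13 against 0.867 to 2.11 CPM in the others, and without both libraries numbered 5 the differences were 4.78 ± 0.32 and -3.86 ± 0.32. FOS was 2.70 ± 0.36 higher in SK-N-BE(2)C than in IMR-32 (adjusted p = 7.66e-09), and did not pass between SK-N-BE(2)C and SH-SY5Y (-0.25 ± 0.28, interval -0.80 to 0.29, 1.96 SE on either side). EGR2 ran the other way, at -3.54 ± 0.42 for SK-N-BE(2)C minus IMR-32 (adjusted p = 6.37e-10). ARC, whose protein removes glutamate receptors from synapses, was 3.70 ± 0.22 higher in SK-N-BE(2)C than in SH-SY5Y and 1.88 ± 0.21 higher in IMR-32 than in SH-SY5Y. JUN was 1.51 ± 0.20 higher in IMR-32 than in SH-SY5Y, and its difference of -0.45 ± 0.19 between SK-N-BE(2)C and IMR-32, under the fold limit, became -0.63 ± 0.10 without both libraries numbered 5 and was then called (adjusted p = 2.76e-07). FOSB, EGR2 and ATF3 between SK-N-BE(2)C and SH-SY5Y, and EGR3 between IMR-32 and SH-SY5Y, were called but lost the call without any one of 7, 6, 2 and 5 control libraries. The SH-SY5Y control numbered 3 was among them for EGR2 (-0.56, adjusted p = 0.317), ATF3 (0.47, adjusted p = 0.00765) and EGR3 (-0.61, adjusted p = 0.178). With no filter on low counts these 4 calls were also lost (FOSB -1.49 ± 0.63, adjusted p = 0.0522, EGR2 -1.17 ± 0.50, adjusted p = 0.052, ATF3 0.49 ± 0.15, adjusted p = 0.00519 and EGR3 -0.85 ± 0.39, adjusted p = 0.0734). EGR3 also lost it without both IMR-32 libraries numbered 5 (-0.84 ± 0.42, adjusted p = 0.0689).

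The filter on low counts left out FOSB in SK-N-BE(2)C, FOS, FOSB and EGR3 in IMR-32 and EGR2 in SH-SY5Y. EGR2 passed it in SK-N-BE(2)C only through the 7 day libraries and in IMR-32 through the controls, the groups where it was high. In SH-SY5Y FOSB passed only through PB libraries (24 h and 5 days) and EGR3 only through control and 24 h libraries. For these a difference was built into being tested, so their calls and p-values are given as a description and the counts that hold them support nothing. After 24 h of PB, FOS (tested in SK-N-BE(2)C and SH-SY5Y) and EGR1 were not called. In SK-N-BE(2)C 0 of 9 members tested were called higher (10.9% of 14055 genes) and 1, ATF3, lower (10.6%). In IMR-32 0 of 7 were called higher (7.87% of 14293 genes) and 2, EGR2 and ATF3, lower (10.5%). In SH-SY5Y 2 of 9, JUNB and ARC, were called higher (10.5% of 14547 genes) and 0 lower (11.0%). For these counts of 0, edgeR had 2 members (ARC and JUNB) higher in SK-N-BE(2)C, 2 (the same) higher in IMR-32 and 0 lower in SH-SY5Y at an unadjusted p under 0.05, and DESeq2 called 0, 0 and 0. The adrenergic marker sums at 24 h lay above those of controls in every line without overlap (1950 to 2170 and 2700 to 3000 CPM in SK-N-BE(2)C, 1280 to 2060 and 2260 to 2990 CPM in IMR-32, 3720 to 5060 and 5530 to 7470 CPM in SH-SY5Y), as did the Schwann-type sum in SK-N-BE(2)C (5.12 to 8.32 and 9.35 to 13.8 CPM), and their part in the members' values was not tested. The median log2 fold change of the members tested was -0.10, 0.34 and 0.17 in the 3 lines, beside 0.02, 0.06 and 0.04 for all genes tested.

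In SK-N-BE(2)C at 7 days 5 of 9 (FOS, JUN, EGR1, EGR2 and EGR3) were higher than control (24.5% of all genes) and 1, ATF3, lower (22.3%). In IMR-32 at 5 days 3 of 7 (JUN, ATF3 and ARC) were higher (16.6%) and 1, EGR2, lower (15.5%). In SH-SY5Y at 5 days 3 of 9 (FOSB, JUN and ARC) were higher (18.6%) and 1, EGR3, lower (17.3%). The members' medians were 0.56, 0.36 and 0.28, beside 0.01, 0.00 and 0.01 for all genes. Against 24 h, the same 5 of 9 were called higher (17.5%) and ATF3 lower (14.4%) in SK-N-BE(2)C, 2 of 7 (JUN and ATF3) higher (10.8%) and 0 lower (8.86%) in IMR-32, and 1 of 9 (JUN) higher (10.5%) and 2 (JUNB and EGR3) lower (6.23%) in SH-SY5Y. No IMR-32 member was lower in that comparison at an unadjusted p under 0.05 (0 by edgeR) or by DESeq2 (0). Comparisons within a line share libraries, so their values are set side by side only. JUN was the 1 member called higher at that time in every line. The adrenergic markers summed in SK-N-BE(2)C to 1950 to 2170 CPM in controls and 2330 to 3000 CPM at 7 days, while in the other lines these sums overlapped between control and 5 days. The 4 fibroblast markers summed in SK-N-BE(2)C to 160 to 210 CPM in controls and 230 to 454 CPM at 7 days, with COL1A2 under 0.1 CPM in every library of both groups, and the Schwann-type markers to 5.12 to 8.32 and 10.1 to 13.6 CPM. In IMR-32 the fibroblast markers summed to 78.0 to 142 CPM in controls and 24.2 to 36.1 CPM at 5 days, the mesenchymal-type markers to 365 to 1020 and 154 to 309 CPM, and the Schwann-type markers to 1.17 to 3.28 and 5.24 to 9.0 CPM. In SH-SY5Y the mesenchymal-type markers summed to 1260 to 1740 CPM in controls and 1080 to 1240 CPM at 5 days, and the fibroblast and Schwann-type sums overlapped. These sums do not tell which cells held the transcripts, and their part in the members' values was not tested.

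**Figure D2:**
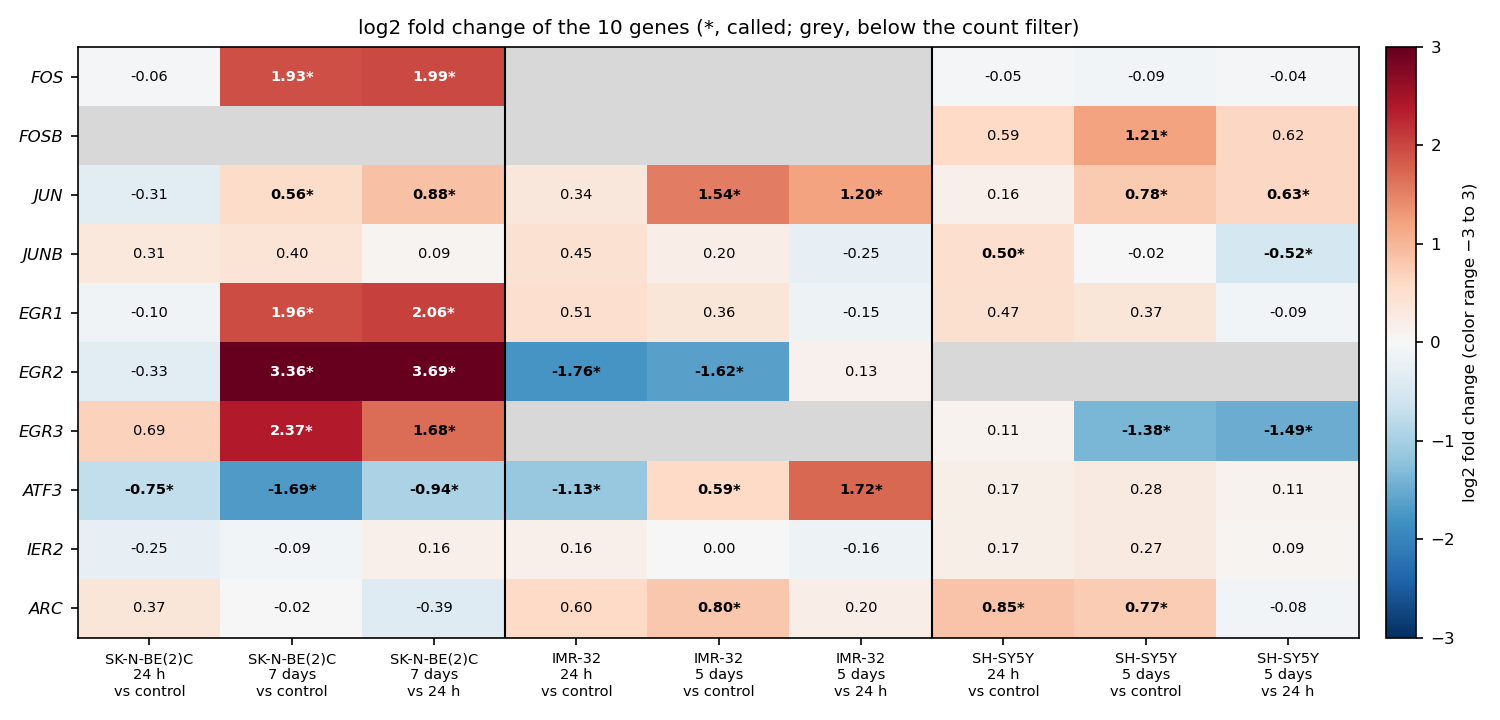
Log2 fold change of the 10 genes (rows) in the comparisons within each line (columns), from red (higher) to blue (lower), with an asterisk where a gene was called and grey where too few reads were counted to test it. At 5 or 7 days JUN was called in every line (0.56, 1.54 and 0.78), while EGR2 was at 3.36 in SK-N-BE(2)C and at -1.62 in IMR-32.

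FOS encodes the classical partner of JUN in AP-1. Its level in the SK-N-BE(2)C controls was 1.15, 1.48, 2.38, 1.28 and 1.97 CPM, with 1.81, 1.14, 2.21, 1.27 and 1.59 CPM at 24 h and 6.26, 8.26, 4.53, 5.95 and 6.75 CPM at 7 days. Every 7 day library was above every control and 24 h library, and the latter groups overlapped. FOS was thus 1.93 ± 0.23 log2 units higher at 7 days than in control (adjusted p = 1.18e-06) and 1.99 ± 0.23 higher than at 24 h, with -0.06 ± 0.24 at 24 h (interval -0.54 to 0.41). In SH-SY5Y the controls (1.58 to 2.94 CPM), 24 h libraries (1.88 to 3.04) and 5 day libraries (1.04 to 3.72) overlapped, and the 5 day difference of -0.09 ± 0.28 had an interval of -0.63 to 0.45. In IMR-32 FOS gave 2 to 11 reads per control library, 3 to 6 at 24 h and 2 to 5 at 5 days, and was below the count filter.

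FOSB, which encodes an AP-1 subunit with a long-lived truncated form, was scarce throughout. The SH-SY5Y controls held 0.468, 0.48, 0.159, 0.345 and 0.216 CPM, the 24 h libraries 0.594, 0.177, 1.25, 0.233 and 0.373 CPM and the 5 day libraries 1.17, 0.971, 0.995, 0.491 and 0.298 CPM. The groups overlapped, with 4 of the 5 day libraries above every control. The 5 day difference was 1.21 ± 0.48 (adjusted p = 0.0341), a call lost without any one of 6 libraries, the controls numbered 3, 4 or 5 and the 5 day libraries numbered 1, 2 or 3 (1.03 to 1.22, adjusted p = 0.0558 to 0.0868). No control reached the level the filter asked for. Against 24 h the difference of 0.62 ± 0.46 did not pass, and did without the 24 h library numbered 3 (1.23, adjusted p = 0.0367). SK-N-BE(2)C libraries held FOSB at 0 to 6 reads per control and 5 to 10 at 7 days, below the filter, and with no filter its 7 day difference was 1.75 ± 0.61, adjusted p = 0.0228. In IMR-32 it had at most 4 reads in any library.

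JUN encodes the AP-1 subunit that can bind DNA as a pair with itself. In SK-N-BE(2)C it was at 77.8, 81.3, 82.1, 82.2 and 74.4 CPM in controls, 57.0, 68.9, 65.4, 64.1 and 64.6 CPM at 24 h and 97.1, 119, 139, 116 and 117 CPM at 7 days. The 3 groups did not overlap, with the 24 h libraries lowest and the 7 day libraries highest. The 24 h difference of -0.31 ± 0.08 (adjusted p = 0.00331) was under the fold limit, and JUN was 0.56 ± 0.08 higher at 7 days than in control (adjusted p = 5.77e-06) and 0.88 ± 0.08 higher than at 24 h. Without the 7 day library numbered 3, the highest, the 7 day difference was 0.49, adjusted p = 8.15e-06, under the fold limit.

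In IMR-32 JUN was at 119, 101, 135, 129 and 50.7 CPM in controls, 151, 147, 162, 167 and 50.5 CPM at 24 h and 334, 294, 348, 288 and 292 CPM at 5 days. Every 5 day library was above every other, and in the first groups the library numbered 5, which stood apart, was the lowest. JUN was 1.54 ± 0.29 higher at 5 days than in control (adjusted p = 0.000564) and 1.20 ± 0.29 higher than at 24 h (adjusted p = 0.00544), and 1.36 ± 0.09 higher than control without both libraries numbered 5. The 24 h difference of 0.34 ± 0.28 did not pass (adjusted p = 0.385), passed without the 24 h library numbered 5 (0.55, adjusted p = 0.0408) and was 0.37 ± 0.09, under the fold limit, without both (adjusted p = 0.00585).

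In SH-SY5Y JUN was at 49.1, 47.6, 48.4, 39.2 and 35.7 CPM in controls, 58.0, 55.8, 48.2, 39.9 and 43.8 CPM at 24 h and 83.9, 77.4, 76.7, 70.7 and 70.4 CPM at 5 days. The 5 day libraries were above all others, while the control and 24 h libraries overlapped. The 5 day difference was 0.78 ± 0.10 against control (adjusted p = 3.62e-06) and 0.63 ± 0.10 against 24 h (adjusted p = 0.000173).

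JUNB, whose protein competes with JUN for partners, was at 55.0, 54.2, 60.6, 52.4 and 48.8 CPM in the SH-SY5Y controls, 75.5, 74.5, 85.8, 73.9 and 73.8 CPM at 24 h and 56.8, 56.9, 54.6, 43.6 and 55.3 CPM at 5 days. Every 24 h library was above every control and 5 day library, and the latter groups overlapped. The 24 h difference of 0.50 ± 0.08 (adjusted p = 2.62e-05) lay at the fold limit, and was no longer over it without any one of 8 libraries of the line (0.44 to 0.50, adjusted p = 3.58e-05 to 0.000176), lowest without the 24 h library numbered 3. It was 0.48 by DESeq2. JUNB was at -0.52 ± 0.08 at 5 days against 24 h (adjusted p = 4.88e-05), and under the fold limit, at -0.46, without the 24 h library numbered 3, without the 5 day library numbered 4, or with library sizes not scaled by TMM. SK-N-BE(2)C had JUNB 0.31 ± 0.08 above control at 24 h (adjusted p = 0.00525) and 0.40 ± 0.08 at 7 days (adjusted p = 0.000334), with no overlap between control and either PB group and both differences under the fold limit. In IMR-32 the 24 h difference was 0.45 ± 0.13 (adjusted p = 0.0151), with 49.8 against 27.9 to 37.3 CPM for the library numbered 5 and the others, and became a call without the 24 h library numbered 3 (0.52, adjusted p = 0.0073). Without both libraries numbered 5 it was 0.34 ± 0.09.

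**Figure D3:**
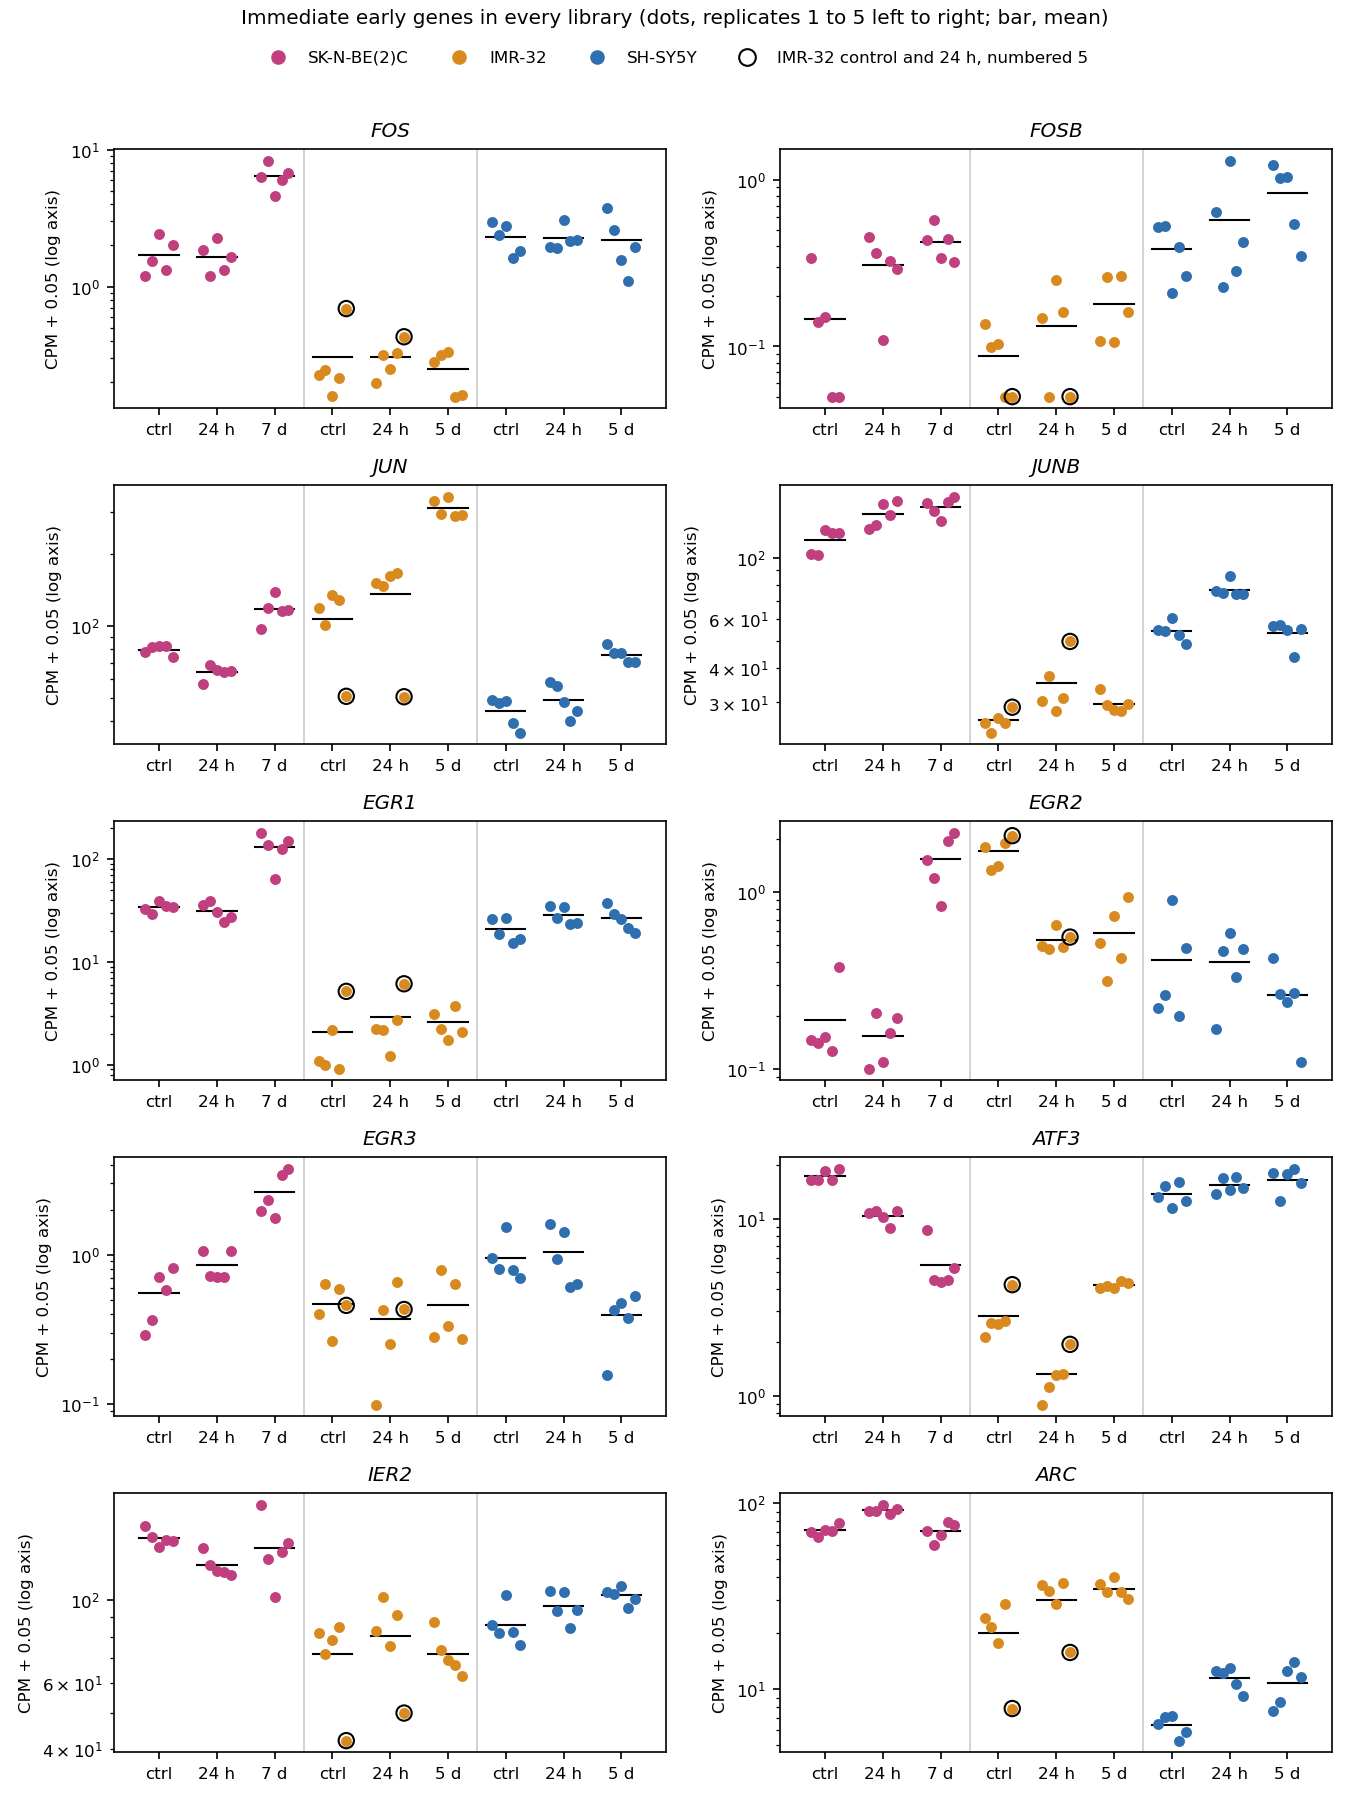
Level of the 10 genes in each of 45 libraries, in CPM plus 0.05 on a log axis whose range differs between panels (dots, libraries; bars, group means; pink, SK-N-BE(2)C; orange, IMR-32; blue, SH-SY5Y; open circles, the IMR-32 control and 24 h libraries numbered 5). EGR1 in SK-N-BE(2)C lay between 24.5 and 39.2 CPM in the control and 24 h libraries and between 63.8 and 181 CPM at 7 days.

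The EGR genes encode zinc finger factors that share a DNA-binding domain. Of them EGR1 was the most abundant in SK-N-BE(2)C and SH-SY5Y, while in the IMR-32 controls its median was 1.05 CPM against 1.75 CPM for EGR2. EGR1 was at 32.6, 29.0, 39.1, 35.3 and 34.1 CPM in the SK-N-BE(2)C controls, 36.2, 39.2, 30.6, 24.5 and 27.5 CPM at 24 h and 181, 138, 63.8, 127 and 151 CPM at 7 days. Every 7 day library was above every other library of the line, and the control and 24 h libraries overlapped. EGR1 was 1.96 ± 0.22 higher at 7 days than in control (adjusted p = 1.16e-06) and 2.06 ± 0.22 higher than at 24 h. The 7 day library numbered 3 was the lowest of its group for both EGR1 and FOS.

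In SH-SY5Y EGR1 was at 15.4 to 26.9 CPM in controls, 23.6 to 35.0 at 24 h and 19.1 to 37.9 at 5 days, overlapping ranges. The 24 h difference of 0.47 ± 0.20 did not pass (adjusted p = 0.0635) except without the control numbered 1 (0.56, adjusted p = 0.0391) or 3 (0.58, adjusted p = 0.0311). Each 24 h library was above the control of its number, and with the replicate number as a block the 24 h and 5 day differences passed the p limit and stayed under the fold limit (0.48 ± 0.09, adjusted p = 0.00018, and 0.37 ± 0.09, adjusted p = 0.00121). In IMR-32 EGR1 was at 1.05, 0.936, 2.11, 0.867 and 5.13 CPM in controls, 2.17, 2.14, 1.16, 2.65 and 6.09 CPM at 24 h and 3.07, 2.17, 1.71, 3.67 and 2.05 CPM at 5 days, and the highest of the first groups were the libraries numbered 5. Neither the 24 h (0.51 ± 0.50, adjusted p = 0.471) nor the 5 day difference (0.36 ± 0.51, adjusted p = 0.578) passed. The 24 h difference passed without the control numbered 5 (1.19, adjusted p = 0.0463), and without both libraries numbered 5 the differences were 0.73 ± 0.34 (adjusted p = 0.105) and 1.05 ± 0.32 (adjusted p = 0.011), the latter called. That setting keeps the 5 day library numbered 5. With the replicate number as a block neither difference passed (0.55 ± 0.41, adjusted p = 0.3, and 0.59 ± 0.42, adjusted p = 0.243).

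EGR2, a factor known for its role in myelination, was at 0.0959, 0.0899, 0.101, 0.0755 and 0.329 CPM in the SK-N-BE(2)C controls, which is 1 to 6 reads per library. It was at 0.0502, 0.157, 0.0596, 0.11 and 0.145 CPM at 24 h and at 1.47, 1.16, 0.789, 1.89 and 2.12 CPM (19 to 39 reads) at 7 days. All 7 day libraries were above all others. The difference was 3.36 ± 0.41 against control (adjusted p = 1.51e-06) and 3.69 ± 0.42 against 24 h, with the size resting on few reads in the lower groups.

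In IMR-32 EGR2 went the other way, from 1.75, 1.28, 1.35, 1.86 and 2.04 CPM in controls to 0.444, 0.429, 0.604, 0.441 and 0.507 CPM at 24 h and 0.464, 0.265, 0.684, 0.373 and 0.888 CPM at 5 days. Every control was above every PB library. EGR2 was at -1.76 ± 0.28 at 24 h (adjusted p = 0.000204) and -1.62 ± 0.28 at 5 days (adjusted p = 0.000225), and at -1.69 ± 0.32 and -1.55 ± 0.29 without both libraries numbered 5. In SH-SY5Y it gave 3 to 16 reads per control library, 2 to 9 at 24 h and 1 to 7 at 5 days and was below the filter.

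EGR3, a factor of muscle spindle and lymphocyte development, was at 0.24, 0.315, 0.658, 0.529 and 0.767 CPM in the SK-N-BE(2)C controls, 1.0, 0.668, 0.656, 0.661 and 1.01 CPM at 24 h and 1.92, 2.26, 1.7, 3.34 and 3.7 CPM at 7 days. The 7 day libraries were above all others. The difference was 2.37 ± 0.32 at 7 days (adjusted p = 4.78e-06) and 0.69 ± 0.34 at 24 h, which did not pass (adjusted p = 0.111). In SH-SY5Y it was at 0.894, 0.747, 1.49, 0.74 and 0.648 CPM in controls, 0.559 to 1.55 CPM at 24 h and 0.106, 0.378, 0.426, 0.327 and 0.477 CPM at 5 days. Every 5 day library was below every control and 24 h library, at -1.38 ± 0.39 against control (adjusted p = 0.00462) and -1.49 ± 0.39 against 24 h (adjusted p = 0.00531). In IMR-32 EGR3 gave 1 to 14 reads per library and was below the filter.

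ATF3, a member of the ATF/CREB family induced by many stresses, was at 16.4, 16.4, 18.6, 16.4 and 19.1 CPM in the SK-N-BE(2)C controls, 10.7, 11.0, 10.2, 8.81 and 11.0 CPM at 24 h and 8.62, 4.47, 4.36, 4.45 and 5.22 CPM at 7 days. The 3 groups did not overlap and each later group was lower. ATF3 was at -0.75 ± 0.15 at 24 h (adjusted p = 0.000694), -1.69 ± 0.16 at 7 days (adjusted p = 8.34e-08) and -0.94 ± 0.16 between them. It was thus lower in the same 7 day libraries in which FOS, JUN and the EGR genes were higher.

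In IMR-32 ATF3 was at 2.1, 2.51, 2.48, 2.6 and 4.19 CPM in controls, 0.84, 1.07, 1.26, 1.27 and 1.9 CPM at 24 h and 4.0, 4.13, 3.99, 4.42 and 4.27 CPM at 5 days. The 24 h libraries were below all others, and the 5 day libraries were above the controls numbered 1 to 4. ATF3 was at -1.13 ± 0.22 at 24 h (adjusted p = 0.00119) and 1.72 ± 0.22 from 24 h to 5 days (adjusted p = 4.03e-05). The 5 day level was 0.59 ± 0.21 above control (adjusted p = 0.0289), a call lost without the control numbered 1, 2, 3 or 4 or the 5 day library numbered 4 (0.50 to 0.57, adjusted p = 0.057 to 0.0755). Without both libraries numbered 5 it was 0.78 ± 0.16 (adjusted p = 0.000606). In SH-SY5Y ATF3 was at 11.4 to 16.0 CPM in controls, 13.7 to 17.2 at 24 h and 12.6 to 19.0 at 5 days, with 0.17 ± 0.12 (adjusted p = 0.247) and 0.28 ± 0.12 (adjusted p = 0.0433), both under the fold limit.

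Whether the responses differed between lines was tested directly where the time was the same. ATF3 was the 1 member of 10 called in the 24 h response of SK-N-BE(2)C minus that of SH-SY5Y (-0.95 ± 0.21, adjusted p = 0.00674; 2.04% of 16282 genes were called) and of IMR-32 minus SH-SY5Y (-1.33 ± 0.25, adjusted p = 0.000505; 3.07% of genes). Between SK-N-BE(2)C and IMR-32 0 of 10 members were called by edgeR (4.49% of genes), and 1, JUN, had an unadjusted p under 0.05. JUN was at -0.65 ± 0.27 (adjusted p = 0.157), and at -0.68 ± 0.14 without both IMR-32 libraries numbered 5, then called (adjusted p = 0.00118). It was also called without the 24 h library numbered 5 (-0.86, adjusted p = 0.00488). With the replicate number as a block it was called as well (-0.64 ± 0.20, adjusted p = 0.0289). ATF3 in that comparison was at 0.39 ± 0.25, with an interval of -0.09 to 0.87.

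EGR2 in the 24 h response of IMR-32 minus SH-SY5Y was at -1.78 ± 0.56 (adjusted p = 0.0589) and passed without any one of 5 libraries, furthest without the SH-SY5Y control numbered 3 (-2.36, adjusted p = 0.00822). The others were the SH-SY5Y 24 h library numbered 1, the SK-N-BE(2)C control numbered 5 and 7 day library numbered 3, and the IMR-32 5 day library numbered 5. It also passed with the replicate number as a block (-1.83 ± 0.50, adjusted p = 0.0164). In the 5 day response of IMR-32 minus SH-SY5Y 0 of 10 members were called by edgeR (20.8% of genes), and 2, JUN and EGR3, had an unadjusted p under 0.05. DESeq2 was not run on differences between lines. JUN was at 0.69 ± 0.27 (adjusted p = 0.0503) and passed without any one of 5 libraries, the IMR-32 controls numbered 1, 3 or 4, the IMR-32 24 h library numbered 5 or the SH-SY5Y control numbered 5 (0.69 to 0.79, adjusted p = 0.00682 to 0.0498), and without both IMR-32 libraries numbered 5 (0.51 ± 0.14, adjusted p = 0.00321). With the block it was called too (0.79 ± 0.20, adjusted p = 0.00211). EGR2 passed there without the SH-SY5Y control numbered 3 (-1.54, adjusted p = 0.0401, against -0.96 with all libraries).

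IER2, a short-lived nuclear protein gene induced by growth factors, stayed under the fold limit in all 9 comparisons within lines. It was at 139 to 158 CPM in the SK-N-BE(2)C controls, 117 to 138 at 24 h and 102 to 180 at 7 days, the 24 h libraries all below the controls at -0.25 ± 0.11 (adjusted p = 0.0637; with the replicate block -0.25 ± 0.08, adjusted p = 0.0135). In IMR-32 the libraries numbered 5 were low, at 42.1 against 71.7 to 84.7 CPM in controls and 49.9 against 75.6 to 102 CPM at 24 h. In SH-SY5Y IER2 was at 85.6 ± 10.2 CPM in controls (SD, n = 5) and 103 ± 5.33 CPM at 5 days, 0.27 ± 0.08 apart (adjusted p = 0.00555) and under the fold limit.

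ARC was at 6.47, 7.04, 7.12, 5.23 and 5.83 CPM in the SH-SY5Y controls, 12.5, 12.1, 12.9, 10.6 and 9.11 CPM at 24 h and 7.6, 8.52, 12.5, 14.0 and 11.6 CPM at 5 days. Every PB library was above every control, by 0.85 ± 0.16 at 24 h (adjusted p = 0.000213) and 0.77 ± 0.16 at 5 days (adjusted p = 0.000297). In IMR-32 ARC was at 24.1, 21.5, 17.6, 28.8 and 7.81 CPM in controls, 36.1, 33.7, 28.5, 37.2 and 15.7 CPM at 24 h and 36.7, 33.2, 40.1, 33.1 and 30.5 CPM at 5 days. The 5 day libraries were above every control, and the libraries numbered 5 were the lowest of the first groups. The 5 day difference of 0.80 ± 0.28 (adjusted p = 0.026) lost its call without the control (0.75, adjusted p = 0.056) or the 5 day library numbered 3 (0.74, adjusted p = 0.0548), and the 24 h difference of 0.60 ± 0.28 (adjusted p = 0.112) gained one without the 24 h library numbered 5 (0.76, adjusted p = 0.0268). With the replicate number as a block the 24 h difference was called as well (0.62 ± 0.18, adjusted p = 0.0148), and each 24 h library was above the control of its number. Without both libraries numbered 5 the differences were 0.55 ± 0.13 (adjusted p = 0.00416) and 0.59 ± 0.13 (adjusted p = 0.00107), both called. ARC in SK-N-BE(2)C was at 65.5 to 78.5 CPM in controls, 87.7 to 98.2 at 24 h, all above the controls by 0.37 ± 0.07 (adjusted p = 0.000433) and under the fold limit, and 59.3 to 79.0 at 7 days.

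Libraries of one group also differed among themselves, and it was asked which members moved with FOS when group means were taken out. Over the 15 libraries of a line, r with FOS was positive for 5 of 9 members in IMR-32 and for 7 in either other line (log2 of CPM + 1). Of 27 relations, 1 passed a two-sided permutation test with 100000 resamples after adjustment, JUNB in SH-SY5Y (r = 0.78, permutation p = 0.0011, adjusted p = 0.03). Its rho was 0.68 (permutation p = 0.006, adjusted p = 0.16), and without the 2 libraries farthest from the median of FOS its r was 0.77 (permutation, adjusted p = 0.2). In IMR-32 ATF3 had r = 0.76 (permutation, adjusted p = 0.15) and JUN r = -0.70 (permutation, adjusted p = 0.16). Without the 2 farthest libraries these were -0.01 and 0.17, so the relations there rest on those libraries. Values were shuffled within groups without regard to replicate number, although same-numbered libraries deviated together in 6 of 9 comparisons within lines. The permutation p-values thus treat libraries as independent that may not be.

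As a description over all 45 libraries with group means taken out, the genes most like FOS among 12556 were SERTAD1 (r = 0.67), EFR3A (0.62), MB21D2 (0.61), NAB2 (0.61) and BAZ2B (0.61). Those most like EGR1 were SESN2 (0.77), DUSP5 (0.75), SERTAD3 (0.74), ARSJ (0.74) and TGIF1 (0.73). FOS and EGR1 had r = 0.53 with each other. These libraries share lines and preparation, and the IMR-32 libraries numbered 5 are among them.

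Of 29 other immediate early genes listed, 28 were found and 24, 20 and 22 were tested in the lines. At 24 h 2 higher and 1 lower were called in SK-N-BE(2)C, while IMR-32 had 4 higher and 2 lower and SH-SY5Y 6 higher and 2 lower. Shares of all genes called higher and lower then were 10.9% and 10.6%, 7.87% and 10.5%, and 10.5% and 11.0%. At the longer time the counts were 8 higher and 8 lower, 3 higher and 3 lower, and 5 higher and 6 lower, with medians of -0.11, -0.09 and 0.18 beside the 0.01, 0.00 and 0.01 of all genes, of which 24.5% and 22.3%, 16.6% and 15.5%, and 18.6% and 17.3% were called. From 24 h to the longer time SH-SY5Y had 1 higher and 7 lower of 22 (10.5% and 6.23% of all genes; median -0.26), among them KLF2 (-3.46 ± 0.33) and SGK1 (-1.46 ± 0.27) lower. SK-N-BE(2)C had 4 higher and 4 lower of 24 (17.5% and 14.4%). IMR-32 had 0 higher and 2 lower of 20 (10.8% and 8.86%), with 0 higher at an unadjusted p under 0.05 by edgeR and 1 called higher by DESeq2. BTG2, an antiproliferative gene, was higher at 24 h in all 3 lines (1.49 ± 0.17, 0.67 ± 0.18 and 0.85 ± 0.13). IER5, a regulator of heat shock factor, was lower in each line at 24 h (-1.32 ± 0.19, -0.52 ± 0.15 and -0.56 ± 0.11) and later (-0.88 ± 0.19, -0.52 ± 0.15 and -0.75 ± 0.11).

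In SK-N-BE(2)C at 7 days, where FOS and the EGR genes were higher, so was MYC (3.04 ± 0.47), while the orphan nuclear receptor gene NR4A2 was lower (-0.97 ± 0.21), as was the AP-1-related gene MAFF (-1.75 ± 0.24). KLF2, a shear-responsive factor gene, was higher there at 24 h (1.41 ± 0.25). In SH-SY5Y KLF2 was higher at 24 h (2.60 ± 0.29) and was at -0.85 ± 0.41 at 5 days (adjusted p = 0.0775), NR4A3 was higher at both times (1.79 ± 0.20 and 1.44 ± 0.20), and SGK1 (-1.78 ± 0.27) and ID1 (-1.56 ± 0.14) were lower at 5 days. In IMR-32 the matrix protein gene CCN1 was lower (-1.17 ± 0.17 and -1.39 ± 0.17) and PPP1R15A, which restores translation after stress, was higher (0.83 ± 0.18 and 0.99 ± 0.18) at 24 h and 5 days, and the orphan receptor gene NR4A3 was lower at 5 days than at 24 h (-1.40 ± 0.48).

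**Figure D4:**
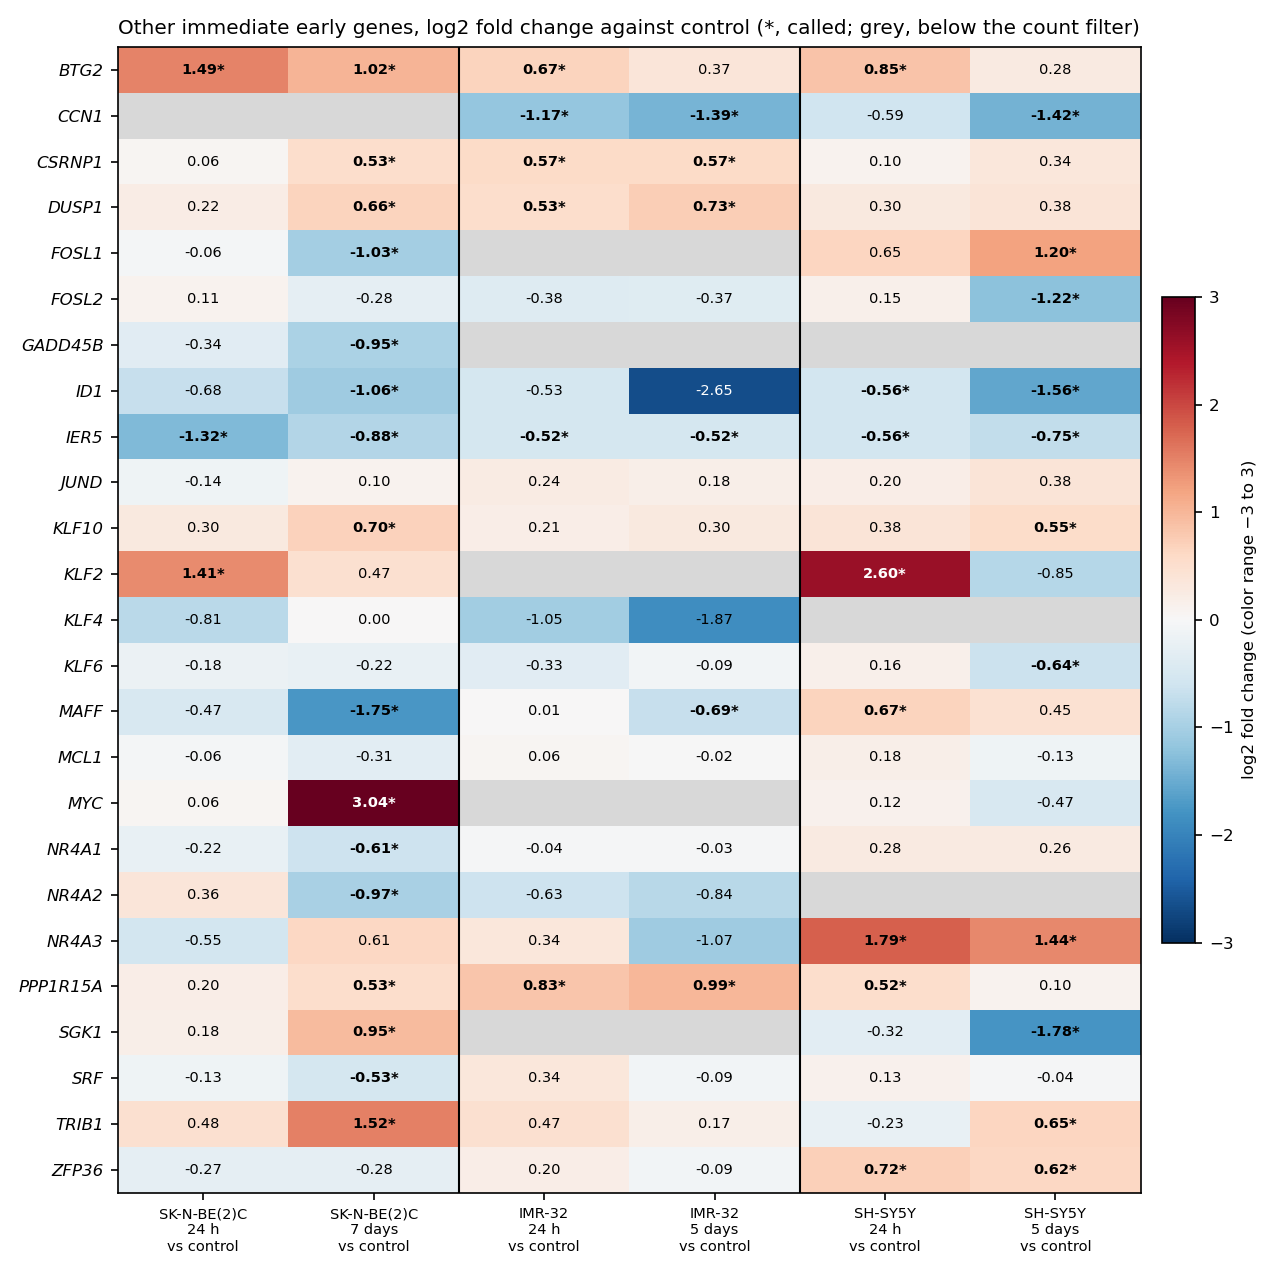
Log2 fold change of other immediate early genes tested in at least 1 line (rows) at 24 h and at the longer time in each line (columns), from red (higher) to blue (lower), with an asterisk where a gene was called and grey where too few reads were counted. BTG2 was called higher in all 3 lines at 24 h, and IER5 lower at both times in each line.

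Genes of feedback on ERK signalling, the cascade that can induce FOS and EGR1, were called in both directions. Of 13, 11 and 13 tested in the lines, 4 higher and 3 lower, 1 higher and 4 lower, and 3 higher and 1 lower were called at the longer time, with medians of 0.10, -0.57 and 0.10. Of all genes 24.5% and 22.3%, 16.6% and 15.5%, and 18.6% and 17.3% were called. At 24 h the counts were 1 higher and 1 lower, 0 higher and 0 lower, and 3 higher and 0 lower, beside 10.9% and 10.6%, 7.87% and 10.5%, and 10.5% and 11.0% of all genes. The counts of 0 in IMR-32 and SH-SY5Y were 0 by DESeq2 too and edgeR had 1 gene in IMR-32 and 2 in SH-SY5Y lower at an unadjusted p under 0.05. DUSP4, a nuclear ERK phosphatase, was higher in every line at 5 or 7 days (1.01 ± 0.15, 1.17 ± 0.30 and 0.52 ± 0.16). SPRED3, an inhibitor of RAS signalling, was higher in SK-N-BE(2)C (2.58 ± 0.11) and SH-SY5Y (2.18 ± 0.16), while IL17RD (-2.45 ± 0.54) and ETV4 (-1.93 ± 0.23) were lower in SK-N-BE(2)C. SPRY1 was higher there (1.19 ± 0.21) and lower in IMR-32 (-1.07 ± 0.26). SPRY4 was higher in SH-SY5Y at 24 h (0.60 ± 0.21) and 5 days (0.79 ± 0.21), and PHLDA1 was lower in SK-N-BE(2)C at 24 h (-0.91 ± 0.32) and 7 days (-0.84 ± 0.32) and in IMR-32 at 5 days (-0.93 ± 0.32).

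Of 23 upstream kinases and factors, of which 22, 22 and 23 were tested, 4 higher and 4 lower, 2 higher and 3 lower, and 3 higher and 2 lower were called at the longer time and 1 higher and 2 lower, 1 higher and 2 lower, and 1 higher and 0 lower at 24 h. The count of 0 lower in SH-SY5Y was 0 by DESeq2, with 6 genes lower by edgeR at an unadjusted p under 0.05. Medians at the longer time were 0.07, -0.07 and 0.06. At neither time did these counts exceed the shares of all genes given for the feedback genes. CRTC1, a coactivator of CREB, was higher in all 3 lines at 24 h (0.72 ± 0.10, 0.64 ± 0.21 and 0.58 ± 0.08) and later (1.26 ± 0.10, 1.03 ± 0.21 and 0.77 ± 0.08). RPS6KA5, a kinase of CREB, was higher in SK-N-BE(2)C at 7 days (0.97 ± 0.25), and ELK3, an SRF partner, was lower in IMR-32 at 5 days (-2.40 ± 0.38). MEF2C, a neuronal factor gene, was lower in SH-SY5Y at 5 days (-0.62 ± 0.14), RPS6KA1, a kinase below ERK, in IMR-32 at 24 h (-0.59 ± 0.12), and the CREB relative ATF1 in SK-N-BE(2)C at 24 h (-0.53 ± 0.08). At the longer time against 24 h MEF2A was higher in SK-N-BE(2)C (0.74 ± 0.10) and CRTC2 in IMR-32 (0.55 ± 0.12). Of the EGR corepressor genes, NAB2, itself a target of EGR1, was higher in SK-N-BE(2)C at 7 days (0.78 ± 0.12), and NAB1 was lower there at 24 h (-0.61 ± 0.09) and in IMR-32 at both times (-0.93 ± 0.08 and -0.88 ± 0.08).

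Of 8 heat shock genes, which heat and handling also move, 0 were called higher in any of the 9 comparisons by edgeR or by DESeq2, where 7.87% to 24.5% of all genes were. At an unadjusted p under 0.05 edgeR had 1 higher in SK-N-BE(2)C at 7 days against 24 h, DNAJB1, and 2 higher in IMR-32 at 5 days against 24 h, DNAJB1 and HSPH1, the latter named after its values were seen. At the longer time 2, 1 and 4 of 8, 7 and 7 tested were called lower than control, with medians of -0.39, -0.21 and -0.51, where 22.3%, 15.5% and 17.3% of all genes were. HSPB1, a small chaperone gene, was lower in all 3 lines (-0.73 ± 0.10, -1.50 ± 0.28 and -0.74 ± 0.10), and HSP90AA1 was lower at 24 h in all 3 (-0.54 ± 0.08, -0.54 ± 0.15 and -0.57 ± 0.11). The co-chaperone gene BAG3 was lower in SK-N-BE(2)C at 24 h (-0.82 ± 0.11) and 7 days (-1.58 ± 0.11), DNAJB1 in IMR-32 at 24 h (-0.54 ± 0.10), and HSPA8 in SH-SY5Y at 5 days against 24 h (-0.55 ± 0.11). HSPA1A was listed at 0 in IMR-32 and SH-SY5Y, and shares reads with its near-identical copy HSPA1B. The latter was low in all 3 lines, at 1.61 to 4.72 CPM.

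ATF3 is also a target of the ATF4 stress response. Of 10 genes of that response, 5 higher and 1 lower, 3 higher and 1 lower, and 2 higher and 3 lower were called at the longer time, with medians of 0.49, 0.07 and 0.08, and 3 higher and 1 lower, 1 higher and 2 lower, and 2 higher and 2 lower at 24 h. The shares of all genes were 24.5% and 22.3%, 16.6% and 15.5%, and 18.6% and 17.3% at the longer time and 10.9% and 10.6%, 7.87% and 10.5%, and 10.5% and 11.0% at 24 h. DDIT3, which encodes the stress factor CHOP, was higher in every line at 5 or 7 days (0.56 ± 0.10, 0.75 ± 0.20 and 0.53 ± 0.12), and PSAT1, of serine synthesis, was lower in all 3 (-0.64 ± 0.10, -0.78 ± 0.09 and -0.75 ± 0.07). DDIT4, an inhibitor of mTORC1, was higher at 24 h in all 3 lines (1.20 ± 0.13, 1.15 ± 0.14 and 1.34 ± 0.17) and the cystine transporter gene SLC7A11 was lower (-1.31 ± 0.14, -2.54 ± 0.68 and -0.83 ± 0.32). CHAC1, which degrades glutathione, was higher at the longer time in SK-N-BE(2)C (1.75 ± 0.19), where ATF3 was lower, and also in IMR-32 (1.58 ± 0.30), where ATF3 was higher. ASNS, of asparagine synthesis, was higher in IMR-32 (0.88 ± 0.34) and SK-N-BE(2)C (0.98 ± 0.23) and lower in SH-SY5Y (-0.67 ± 0.25), and the lipoprotein receptor gene VLDLR was higher in SK-N-BE(2)C (1.86 ± 0.16).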

How the data were processed

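RNA-seq libraries were read from the 3 tables of raw gene counts that the authors deposited, 1 per line. Per the study's methods, polyadenylated RNA was sequenced as paired reads, and the authors trimmed reads with Trim Galore and counted genes with STAR on hg19. The submitters' processing notes name Trim Galore 0.6.4, STAR 2.6.1d and DESeq2 1.32.0. No source used here gives the strand column counted. Deposited CPM tables and the authors' DESeq2 tables (fold changes and p-values) were not used, and 0 per-sample columns of the count tables were left out.

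Each line was fitted on its own with edgeR 4.0.16 (R 4.3.3, limma 3.58.1), with TMM scaling, filterByExpr (minimum count 10, minimum total 15, share 0.7), a robust quasi-likelihood fit and Benjamini-Hochberg adjustment over all genes tested. Calls needed a log2 difference over 0.5 in size and an adjusted p under 0.05. Differences between lines came from 1 fit of all 45 libraries. CPM values use TMM library sizes, and levels per kb divide by the union of exons. One CPM was 18.5 counts at the median depth, so members with few reads are imprecise. The fit was tested on simulated data. Alternatives were RLE size factors, library size without TMM, no filter, no fold limit, DESeq2 1.42.0, a replicate block and each library left out. Leaving out both IMR-32 libraries numbered 5 was chosen after seeing the data. Same-numbered samples deviated together (every pair's correlation over 0.1) in 6 of 9 comparisons within lines. The exceptions were SK-N-BE(2)C 7 days against 24 h, IMR-32 24 h against control and SH-SY5Y 5 days against control. Listed genes that are not members were named if called in the same direction in all 3 lines, or if among the 2 largest called differences of their list. One item of the fixed lists is not reported here. The members and lists were chosen with earlier results of these data known.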

Additional observations from a re-analysis of the deposited data

Results flagged for a closer look

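In 8 of 90 groups of 5 libraries, 1 library lay far from the others for a member, judged by its gap to the nearest library as a share of the group's range (over 0.71). Chance gives about 1 in 20 such groups. FOS was at 0.641 CPM in the IMR-32 control numbered 5, with the next at 0.197, and ATF3 was at 4.19 CPM in the same library, with the next at 2.6. JUN was at 50.5 CPM in the IMR-32 24 h library numbered 5, with the next at 147. In the SH-SY5Y 24 h library numbered 3 both FOS (3.04 CPM, next 2.13) and JUNB (85.8 CPM, next 75.5) were high. JUNB was low in the SH-SY5Y 5 day library numbered 4 (43.6 CPM, next 54.6). EGR2 was high in the SK-N-BE(2)C control numbered 5 (0.329 CPM, next 0.101), and ATF3 was high in the 7 day library numbered 1 of that line (8.62 CPM, next 5.22).

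By a test of the difference itself, the 24 h response of ATF3 differed between lines, by -0.95 log2 units for SK-N-BE(2)C minus SH-SY5Y and by -1.33 for IMR-32 minus SH-SY5Y.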

How the results depend on the processing

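No member changed direction while called. Over members and comparisons, 4211 results that left out 1 library kept the call as it was, 20 gained and 44 lost it. Under the other settings, the fold limit aside, 692 kept it, 12 gained and 12 lost it. Leaving out each library in turn, members called ranged over 1 to 1, 5 to 6 and 6 to 6 in SK-N-BE(2)C (24 h, 7 days, 7 days against 24 h), while IMR-32 had 2 to 4, 2 to 4 and 2 to 2 and SH-SY5Y 1 to 3, 3 to 4 and 2 to 3. They ranged over 0 to 1, 1 to 1, 1 to 2 and 0 to 1 in the 4 differences of response and over 7 to 8, 6 to 8 and 8 to 9 between controls, and calls in the other lists from 179 to 198. With no fold limit 4 members were called in SK-N-BE(2)C at 24 h in place of 1, and 337 in the other lists in place of 189. With no filter 2 were called in IMR-32 at 5 days in place of 4, and 5 in place of 8 between SK-N-BE(2)C and SH-SY5Y controls, where more genes were tested. RLE size factors, no filter and DESeq2 each gave 1 in SH-SY5Y at 24 h in place of 2. RLE size factors gave 1 in the 5 day response of IMR-32 minus SH-SY5Y in place of 0. With library sizes not scaled by TMM, JUNB lost its call in SH-SY5Y at 5 days against 24 h (-0.46, edgeR adjusted p = 0.000183) and ATF3 its call between SK-N-BE(2)C and SH-SY5Y controls (0.34, edgeR adjusted p = 0.0351), where EGR3 gained one (-0.86, edgeR adjusted p = 0.0454). The cause of these changes was not tested where none is given.

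With the replicate number as a block, 1 member in place of 0 was called in the 24 h response of SK-N-BE(2)C minus IMR-32, 2 in place of 1 in that of IMR-32 minus SH-SY5Y and 1 in place of 0 in the 5 day response of IMR-32 minus SH-SY5Y. In IMR-32 at 24 h, where the lowest pair correlation was 0.0721 and the highest 0.866, the block also made ARC a call (0.62, edgeR adjusted p = 0.0148). Within lines and in the differences of response the block changed no other call of a member, the fold limit included. Comparisons between controls were not fitted with the block. Without both IMR-32 libraries numbered 5, a setting chosen after seeing the data, 1 in place of 0 was called in the 24 h response of SK-N-BE(2)C minus IMR-32 and in the 5 day response of IMR-32 minus SH-SY5Y. The relation of JUNB with FOS in SH-SY5Y passed in 0 of 27 relations without the 2 farthest libraries, in place of 1, with fewer libraries.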
